A study of Mus musculus with 4 samples.

Results

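The members were 10 circadian clock genes, namely Bmal1 (written Arntl in the array annotation), Clock, Npas2, Per1, Per2, Cry1, Nr1d2, Dbp, Tef and Bhlhe40. Every probe set annotated to 1 of these symbols was taken, which gave 17 of the 22626 probe sets tested, and 0 probe sets shared between a member and another gene. TCDD mice were female C57BL/6 animals aged 8 to 12 weeks that received 10 µg/kg TCDD, a dioxin, in corn oil by intraperitoneal injection 24 h before cell isolation. DMSO mice, of the same strain, sex and age, received the DMSO solvent in corn oil by the same route and over the same 24 h. Spleens of the 3 mice in a group were pooled, and a density gradient followed by magnetic sorting gave the dendritic cells. Their RNA was amplified and hybridised to 2 Affymetrix arrays per group, which the labels number as biological replicates. The sources used here do not say whether every array had mice of its own, nor at what time of day mice were injected and killed.

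The circadian clock is a transcriptional feedback loop that runs in most cells of the body, cells of the immune system included. The bHLH-PAS proteins CLOCK (or its close relative NPAS2) and BMAL1 bind DNA as a pair at E-box elements and switch on the Per and Cry genes, whose protein products then block the pair. REV-ERB nuclear receptors, of which Nr1d2 encodes REV-ERB beta, close another loop by repressing Bmal1, and the PAR bZIP factors DBP and TEF carry the rhythm to output genes. The aryl hydrocarbon receptor (AhR), which TCDD binds and activates, is a bHLH-PAS protein as well. It pairs with ARNT at dioxin response elements, whose core differs from the E-box. Many clock transcripts swing strongly with the time of day, so a difference in sampling time between groups would show in them, and this was not tested.

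Across the 10 genes the largest difference lay in Nr1d2, which was 2.73-fold lower in TCDD on the probe set with the higher mean over all arrays. Its TCDD mean there, 5.05, lay below the dim threshold of 5.525 (the 40th percentile of mean values over all probe sets), so the fold is set against a dim value. Per2 lay 1.74-fold higher on its brighter probe set, where its DMSO mean of 5.5 was also below the dim threshold. Dbp lay 1.57-fold lower on its brighter probe set. In Nr1d2, Per2 and Dbp the other probe set, which was dim, differed in the opposite direction, by 0.25, -0.20 and 0.55. Both groups had the same mean for Per1, while Bmal1, Clock, Npas2, Cry1 and Tef lay within 0.35 of the DMSO mean on the log2 scale on every probe set. Values here are deposited RMA signals, given as log2 and rounded to 1 decimal, so a difference of 1 is a 2-fold change. None of the 17 probe sets passed the test: limma called 0 of 17, against 0 of 22626 over the whole array (0%), at an adjusted p under 0.05. At an unadjusted p under 0.05 there was 1 of 17, the Nr1d2 probe set, beside 13.1% of all probe sets (6.37% higher and 6.7% lower). In 7 of the 17 (41.2%) the groups did not overlap, with both TCDD arrays above both DMSO arrays in 2 and below them in 5. Of all probe sets 37.4% did not overlap, 19% above and 18.4% below. A difference of at least 0.5 in size was held by 4 of the 17 (23.5%), 2 above 0 and 2 below, and by 18.1% of all probe sets, 4.68% above and 13.4% below. After median centring of the arrays the split without overlap was 1 above and 6 below among the members, and 2977 above and 5567 below among all probe sets, against 4306 and 4156 without it. The median difference was -0.05 over the 17 probe sets and 0 over all probe sets. The members' share without overlap was thus close to that of the whole array.

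**Figure D1:**
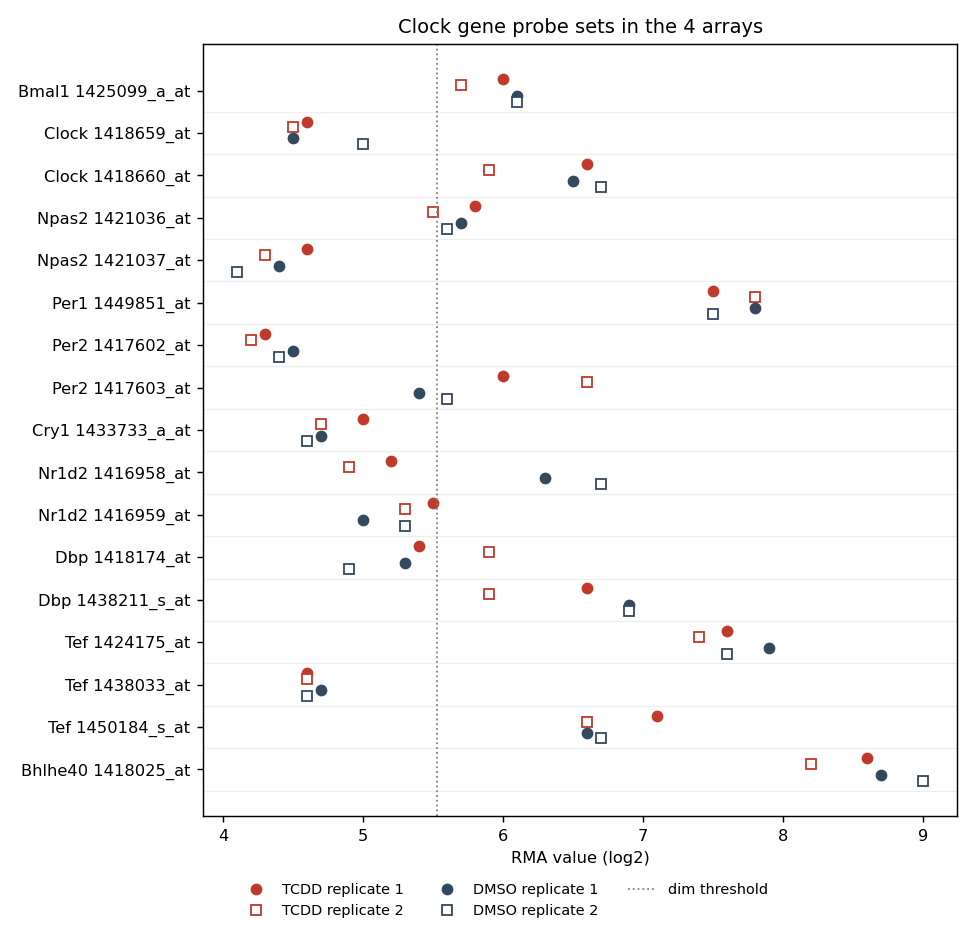
RMA values (log2, horizontal axis) of the 17 clock gene probe sets in the 2 TCDD arrays (red, upper points of each row) and the 2 DMSO arrays (blue, lower points). The dotted line marks the dim threshold of 5.525, the 40th percentile of the mean values of all probe sets. The groups stand furthest apart in the Nr1d2 probe set 1416958_at, with TCDD arrays at 5.2 and 4.9 and DMSO arrays at 6.3 and 6.7.

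The median array value was 6 in TCDD replicate 1 and 5.9 in the other arrays. Of 9 dendritic cell markers 8 lay above the dim threshold and Xcr1 lay below it. The 9 averaged 8.88 and 9.23 in TCDD and 9.70 and 9.53 in DMSO, with 4 lower and 0 higher without overlap. Of all genes, each by its brightest probe set, 19.4% lay lower and 20% higher without overlap. The 6 measured of 7 listed neutrophil markers averaged 8.15 in TCDD replicate 1 and 6.20 in TCDD replicate 2. In DMSO they averaged 6.40 and 6.02. S100a8 lay at 10.3 in TCDD replicate 1, against 5.6 in TCDD replicate 2 and 6.4 and 5.9 in DMSO. S100a9 and Ngp were also highest there, at 9.6 and 8.8. Mpo lay at 6.8 there, against 6.3 in TCDD replicate 2 and 6.2 in both DMSO arrays. Elane lay at 6.5 there, against 6.6 in every other array. Among the neutrophil markers 2 were higher and 0 lower without overlap, namely Mpo and Camp. Camp lay at 6.9 and 6.5 in TCDD, against 5.6 and 5.1 in DMSO. In TCDD replicate 1 the 3′ end of Gapdh exceeded its middle by 3.6, against 2 in TCDD replicate 2 and 1.5 and 2.1 in DMSO, a measure of RNA or label quality. Macrophage markers averaged 8.43 and 8.20 in TCDD and 8.79 and 8.83 in DMSO, with 4 lower and 0 higher without overlap. Among these C1qb lay at 9.9 in TCDD replicate 1, against 8.0 in TCDD replicate 2 and 8.6 and 8.5 in DMSO. C1qa and C1qc, by contrast, were lowest in TCDD replicate 1, at 6.6 and 6.9. The 3 measured of 5 erythroid markers averaged 5.67 and 5.83 in TCDD and 5.47 and 5.57 in DMSO. Of them 2 were higher and 0 lower without overlap. The part of these shifts in the clock gene values was not tested. In such bulk samples fewer cells of a type and less RNA per cell cannot be told apart. Differences also varied with brightness: the median over all probe sets was -0.20 at DMSO levels of 7 to 8, -0.35 at 8 to 9 and 0.05 at 4 to 6. At brighter levels it was -0.45 at 9 to 10, -0.40 at 10 to 11, -0.25 at 11 to 12 and -0.225 from 12 up.

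Nr1d2 encodes REV-ERB beta, a heme-binding nuclear receptor that represses transcription. Its probe set 1416958_at lay at 5.2 and 4.9 in TCDD and at 6.3 and 6.7 in DMSO. The groups did not overlap, and the gap between them exceeded the spread within either. The difference was -1.45 (SE 0.212, n = 2 arrays per group), with a 95% interval of -2.12 to -0.78 that is not adjusted for the number of probe sets, and it did not pass the test (limma adjusted p = 0.349). Of all probe sets 0.517% had a difference this low or lower, and 0.614% had one of at least this size in either direction. At the DMSO level of this probe set, from 6 to 7, the middle 90% of all probe sets ranged from -0.70 to 0.50. Both TCDD arrays shared the direction, with TCDD replicate 1 at -1.30 and TCDD replicate 2 at -1.60 against the DMSO mean. Normalization changed it little, with -1.45 after quantile normalization and -1.52 after cyclic loess.

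The other probe set of Nr1d2, 1416959_at, did not share this pattern. It lay at 5.5 and 5.3 in TCDD and at 5.0 and 5.3 in DMSO, below the dim threshold. Its difference was 0.25 (SE 0.159, 95% interval -0.25 to 0.75, adjusted p = 0.536). The gap between them within an array, brighter minus dimmer, was -0.3 and -0.4 in TCDD and 1.3 and 1.4 in DMSO. The differences of the 2 probe sets were thus 1.70 apart on the log2 scale. Probe positions along the transcript were not used here.

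The promoter of Nr1d2 is shown because this gene had the largest difference, and that of Dbp because its probe sets disagreed. Those of Cry1 and Tef are shown because they alone among the matched members held both an E-box and a full dioxin response element. RefSeq promoter windows (build GRCm38.p6, 250 bases before to 50 after the start site) were matched for 8 of the 10 members, with 13 windows in all; Per2 and Bhlhe40 had none. Capitals mark matches on either strand. They are the E-box CACGTG, the core GCGTG of the dioxin response element, and the half-site AGGTCA of nuclear receptors. The windows are chr14:18239057-18239356 on the minus strand for Nr1d2, chr7:45704997-45705296 on the plus strand for Dbp, chr10:85185005-85185304 on the minus strand for Cry1, and chr15:81811164-81811463 on the plus strand for the second of 2 Tef windows.
Nr1d2: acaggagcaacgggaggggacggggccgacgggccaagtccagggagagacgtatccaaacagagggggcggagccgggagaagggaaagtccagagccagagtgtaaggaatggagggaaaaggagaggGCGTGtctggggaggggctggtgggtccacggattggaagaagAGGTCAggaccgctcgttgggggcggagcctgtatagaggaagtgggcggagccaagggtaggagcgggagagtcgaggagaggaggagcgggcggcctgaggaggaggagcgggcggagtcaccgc
Dbp: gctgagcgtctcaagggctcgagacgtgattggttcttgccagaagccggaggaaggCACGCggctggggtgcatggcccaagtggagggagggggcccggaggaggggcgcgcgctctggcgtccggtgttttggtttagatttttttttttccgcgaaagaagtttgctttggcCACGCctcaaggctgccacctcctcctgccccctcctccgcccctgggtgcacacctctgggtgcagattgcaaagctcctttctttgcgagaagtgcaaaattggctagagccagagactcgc
Cry1: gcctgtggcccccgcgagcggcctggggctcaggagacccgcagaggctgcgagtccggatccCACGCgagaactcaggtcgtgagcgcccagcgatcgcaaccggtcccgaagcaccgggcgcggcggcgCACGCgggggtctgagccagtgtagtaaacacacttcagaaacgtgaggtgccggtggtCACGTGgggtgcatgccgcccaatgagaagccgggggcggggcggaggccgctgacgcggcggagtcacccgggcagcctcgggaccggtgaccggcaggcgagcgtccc
Tef: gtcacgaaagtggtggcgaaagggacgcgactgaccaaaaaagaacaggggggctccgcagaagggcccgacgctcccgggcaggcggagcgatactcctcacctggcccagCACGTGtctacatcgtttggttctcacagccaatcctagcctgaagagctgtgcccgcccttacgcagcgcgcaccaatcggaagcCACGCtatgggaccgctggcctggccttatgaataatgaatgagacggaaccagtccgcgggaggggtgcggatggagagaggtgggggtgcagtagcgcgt
The Nr1d2 window held 1 core element, 120 bases before the start site, and 1 half-site, 77 bases before it, and no E-box. The Dbp window held 2 core elements, 193 and 74 bases before its start site. In Cry1 the E-box lay 60 bases before the start site, and in the Tef window 138 bases before it.

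E-boxes were found in 4 of the 13 clock windows, those of Cry1, Per1 and Tef, and in 7.15% of all 32851 promoter windows. The core GCGTG was found in 8 of 13 clock windows and in 32.4% of all windows. The full element TNGCGTG, which contains that core, was found in 2 of 13 and in 5.07% of all windows. The half-site AGGTCA, which REV-ERB and ROR receptors bind with further bases before it, was found in 4 of 13 and in 16.3% of all. The D-box TTATGTAA, to which DBP and TEF bind, was found in 0 of 13 and in 0.938% of all, and the cAMP response element TGACGTCA in 0 of 13 and in 1.79% of all. These are matches of letters in short windows, and many clock elements are known to lie outside them.

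Among the activators of the loop, Bmal1 encodes the obligate partner of CLOCK and NPAS2. Its single probe set lay at 6.0 and 5.7 in TCDD and at 6.1 and 6.1 in DMSO. The TCDD arrays lay below both DMSO arrays, TCDD replicate 1 by a single rounding step of 0.1. The difference was -0.25 (SE 0.137, 95% interval -0.68 to 0.18, limma adjusted p = 0.48). This interval is not adjusted for the number of probe sets and rests on 2 arrays per group, with equal rounded values in DMSO. Leaving out TCDD replicate 2 gave -0.10.

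Clock lay at 6.6 and 5.9 in TCDD and at 6.5 and 6.7 in DMSO on its brighter probe set, 1418660_at. The groups overlapped, and TCDD replicate 2 alone was low. The difference of -0.35 (SE 0.302, 95% interval -1.31 to 0.61) became 0 without TCDD replicate 2. Its dim probe set differed by -0.20, with 4.6 and 4.5 in TCDD and 4.5 and 5.0 in DMSO. For Npas2, which can stand in for CLOCK, the brighter probe set lay at 5.8 and 5.5 in TCDD and at 5.7 and 5.6 in DMSO, with a difference of 0 (95% interval -0.45 to 0.45). The dim probe set of Npas2 lay at 4.6 and 4.3 in TCDD and at 4.4 and 4.1 in DMSO. Both genes thus overlapped between groups on each of their probe sets.

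Among the repressors, Per2 had the largest difference above 0 of all members. PER2 is the period protein that binds cryptochromes and carries them to the CLOCK and BMAL1 pair. Its probe set 1417603_at lay at 6.0 and 6.6 in TCDD and at 5.4 and 5.6 in DMSO. Both TCDD arrays lay above both DMSO arrays, TCDD replicate 2 by more. The difference was 0.80 (SE 0.264, 95% interval -0.04 to 1.64, limma adjusted p = 0.394). Leaving out TCDD replicate 2 gave 0.50. The difference was 0.80 after quantile normalization and 0.74 after cyclic loess. Of all probe sets 6.28% had a difference of at least this size in either direction, and 99.2% had a difference at or below 0.80. The other probe set, 1417602_at, was dim, at 4.3 and 4.2 in TCDD and at 4.5 and 4.4 in DMSO. There the TCDD arrays lay below the DMSO arrays, and the 2 probe sets of Per2 pointed in opposite directions.

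Per1, a period gene that glucocorticoids induce rapidly, lay at 7.5 and 7.8 in TCDD and at 7.8 and 7.5 in DMSO. The groups held the same values, with a difference of 0 (SE 0.183, 95% interval -0.58 to 0.58). After quantile normalization the difference was 0.28 and after cyclic loess 0.19, and the median of all probe sets at this level was -0.20. Cry1 encodes the cryptochrome that is the strongest repressor of the CLOCK and BMAL1 pair. It lay at 5.0 and 4.7 in TCDD and at 4.7 and 4.6 in DMSO on its single probe set, which was dim, with a difference of 0.20 (95% interval -0.25 to 0.65).

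Dbp is a direct target of CLOCK and BMAL1 with one of the widest daily swings known in mouse tissues. Its brighter probe set, 1438211_s_at, lay at 6.6 and 5.9 in TCDD and at 6.9 and 6.9 in DMSO. Both TCDD arrays were lower, TCDD replicate 2 by 1.0 and TCDD replicate 1 by 0.30. The difference was -0.65 (SE 0.291, 95% interval -1.57 to 0.27, adjusted p = 0.444). Leaving out TCDD replicate 2 gave -0.30. Its other probe set, 1418174_at, lay at 5.4 and 5.9 in TCDD and at 5.3 and 4.9 in DMSO, below the dim threshold on average. There both TCDD arrays were higher, with a difference of 0.55 (SE 0.267, 95% interval -0.30 to 1.40, adjusted p = 0.444), and of 0.30 without TCDD replicate 2. Within arrays the gap between the probe sets was 1.2 and 0 in TCDD and 1.6 and 2.0 in DMSO.

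Tef, a relative of Dbp with a flatter daily rhythm, had 3 probe sets, all with small differences. On the brightest, 1424175_at, the arrays lay at 7.6 and 7.4 in TCDD and at 7.9 and 7.6 in DMSO, with a difference of -0.25 (SE 0.159). This difference was 0 after quantile normalization. On 1450184_s_at they lay at 7.1 and 6.6 in TCDD and at 6.6 and 6.7 in DMSO, and TCDD replicate 1 alone was high. The dim probe set 1438033_at held 4.6 in both TCDD arrays and 4.7 and 4.6 in DMSO. On all of them the groups overlapped or shared a value.

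**Figure D2:**
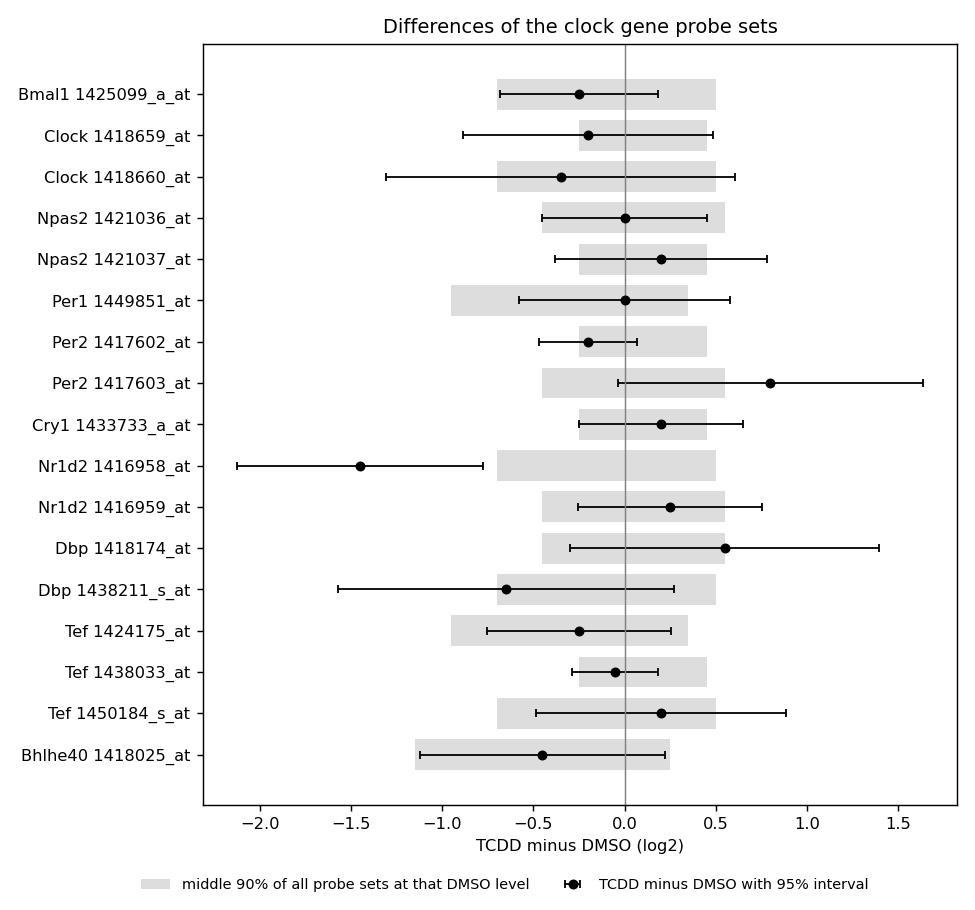
Differences between TCDD and DMSO (log2, horizontal axis) of the 17 probe sets, as points with the 95% interval from limma that is not adjusted for the number of probe sets. Grey bars span the middle 90% of all probe sets in the same log2 unit of DMSO level, and the Nr1d2 probe set 1416958_at at -1.45 and the Per2 probe set 1417603_at at 0.80 lie outside theirs.

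Bhlhe40 encodes a repressor (also known as DEC1 or STRA13) that competes with CLOCK and BMAL1 for E-boxes and that many stimuli induce in immune cells. Its probe set lay at 8.6 and 8.2 in TCDD and at 8.7 and 9.0 in DMSO. Both TCDD arrays were lower, TCDD replicate 1 by 0.1 against the nearer DMSO array. The difference was -0.45 (SE 0.212, 95% interval -1.12 to 0.22, adjusted p = 0.444). It stood close to the median of -0.35 at its level, and was -0.09 after quantile normalization, -0.16 after cyclic loess and -0.25 without TCDD replicate 2.

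**Figure D3:**
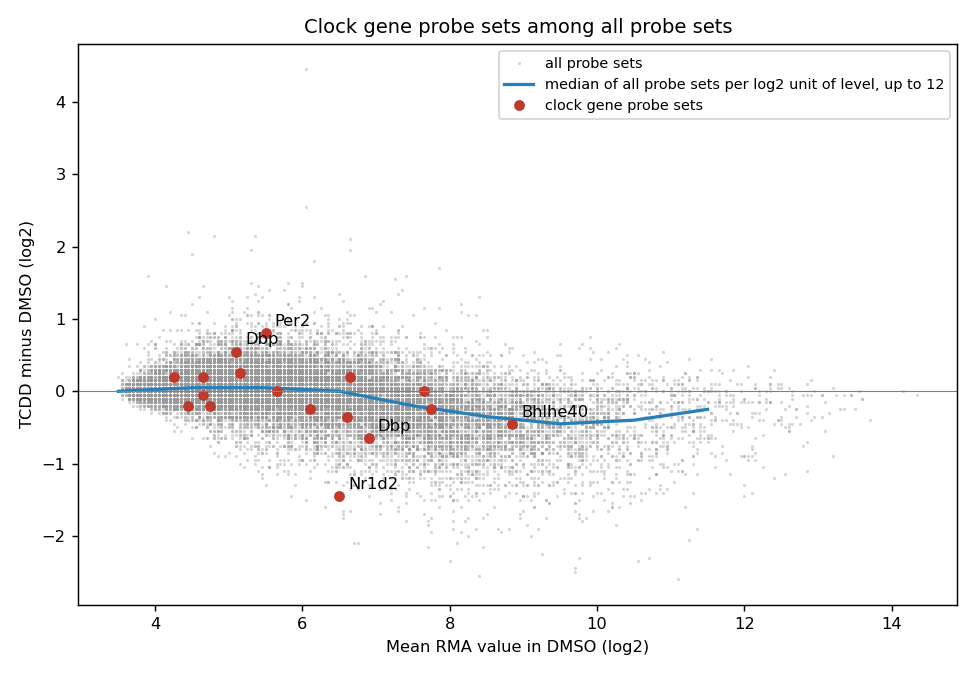
Difference between TCDD and DMSO (log2, vertical axis) against the mean RMA value in DMSO (log2, horizontal axis) for all 22626 probe sets (grey), with the 17 clock gene probe sets in red and the median of all probe sets per log2 unit of level in blue. Bhlhe40, at -0.45, lies close to the blue line, which stands at -0.35 for levels of 8 to 9, while Nr1d2 at -1.45 lies far below it.

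By their mean over all 4 arrays, 10 of the 17 probe sets lay above the dim threshold and 7 below it. The Nr1d2 probe set 1416958_at lay below it in TCDD, with a mean of 5.05, and the Per2 probe set 1417603_at lay below it in DMSO, with a mean of 5.5, so these 2 stood above it through 1 group alone. Above it 2 differences were above 0, 6 below and 2 at 0, with a median of -0.25, beside -0.10 for all probe sets above the threshold. Below it 4 were above 0 and 3 below, with a median of 0.20, beside 0.05 for all dim probe sets. The differences of at least 0.5 in size were those of Nr1d2, Per2 and both Dbp probe sets.

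Among the 6 members with several probe sets, 8 pairs of probe sets of a gene could be compared. In 5 pairs (62.5%) the 2 differences had opposite signs, against 33.4% of the 12821 such pairs on the whole array, and the 5 belonged to 4 genes, Per2, Nr1d2, Dbp and Tef. The gap within arrays did not overlap between groups in 5 pairs, 1 each of Npas2, Per2, Nr1d2, Dbp and Tef, against 34.2% of all such pairs. With 8 pairs, of which 3 share the Tef probe sets, nothing is read from these shares. The gap shifted by -1.70 in Nr1d2, by -1.20 in Dbp and by 1.00 in Per2. In each of those 3 genes 1 of the 2 probe sets was dim.

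**Figure D4:**
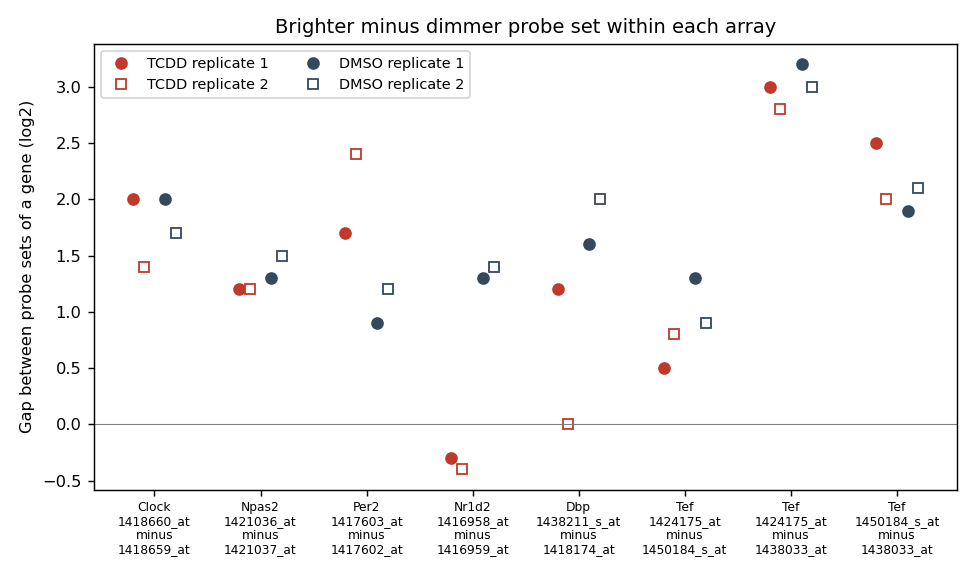
Gap between the brighter and the dimmer probe set of the same gene within each array (log2, vertical axis), for the 8 pairs of the 6 members with several probe sets, in TCDD arrays (red, left of each pair) and DMSO arrays (blue, right). For Nr1d2 the gap is -0.3 and -0.4 in TCDD and 1.3 and 1.4 in DMSO.

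The genes whose values over the 4 arrays were most like those of the Nr1d2 probe set 1416958_at were Chn2, App, Ehd4, Lims1 and Mef2c. Their distances from it, after each probe set's own mean was subtracted, were 0.14, 0.22, 0.24, 0.24 and 0.30 on the log2 scale. Chn2 lay at 6.6 and 6.4 in TCDD and at 7.6 and 8.1 in DMSO, and App at 9.0 and 9.0 in TCDD and at 10.2 and 10.7 in DMSO. With 4 arrays such likeness says little more than that all of them were lower in both TCDD arrays, with differences of -1.45 to -1.35.

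Other genes of the clock were set beside the members, each by its brightest probe set. By that probe set 39.4% of all 12393 genes did not overlap between groups, 20% higher and 19.4% lower. Of 12 further core clock genes 10 were measured; 0 passed the test, 2 lay higher without overlap and 1 lower, and the median difference was 0.05, beside 0 over all genes. Nr1d1, which encodes REV-ERB alpha, the partner of Nr1d2 in the same loop, lay at 5.9 and 6.0 in TCDD and at 5.8 and 5.8 in DMSO, a difference of 0.15 (SE 0.074). Bhlhe41, the relative of Bhlhe40, lay at 5.6 and 5.4 in TCDD and at 5.1 and 5.1 in DMSO, a difference of 0.40 on a dim probe set. Timeless, which in mammals acts mainly in DNA replication, lay at 7.8 and 7.6 in TCDD and at 8.0 and 8.3 in DMSO, a difference of -0.45. Per3 differed by 0.05, Cry2 by 0.10, Rora by -0.15, Rorb by 0.10, Arntl2 by 0.05, Hlf by -0.05 and Nfil3 by 0.

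Of 16 genes whose products modify clock proteins or their cofactors, 12 were measured and 0 passed the test. Without overlap 1 lay higher and 3 lower, 33.3% of the 12, beside 39.4% of all genes. The median of the list was -0.28. Medians over all probe sets were also below 0 at bright levels, as given above. The largest differences in size were -0.70 for Cul1, which encodes a ubiquitin ligase scaffold, and -0.50 for the deacetylase gene Sirt1, and in both the groups overlapped. Ppp1cb, a phosphatase subunit gene, and Nono, a cofactor of PER proteins, followed at -0.45 each. Of 15 genes known as outputs of the clock or of glucocorticoids, 14 were measured and 0 passed the test. Without overlap 3 lay higher and 3 lower, 42.9% of the 14, beside 39.4% of all genes. Their median was -0.08. Sgk1, a kinase gene, lay at 6.9 and 6.9 in TCDD and at 8.4 and 8.3 in DMSO, a difference of -1.45 (SE 0.074, limma adjusted p = 0.349). Ier5, an immediate-early gene, lay at 9.5 and 10.1 in TCDD and at 10.9 and 11.2 in DMSO, a difference of -1.25. Klf10 differed by -0.60, and Nampt, the rate-limiting enzyme gene of NAD salvage, and Noct, a rhythmic phosphatase gene, by -0.45 and 0.45.

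In the bHLH-PAS family around AhR, 14 of 15 listed genes were measured and 0 passed the test. Without overlap 6 lay higher and 2 lower, 57.1% of the 14, beside 39.4% of all genes (20% higher and 19.4% lower). Among the higher ones Sim2, Npas1, Npas3 and Ncoa2 were dim. The median of all probe sets at DMSO levels of 4 to 6 was 0.05. The list median was 0.08. Ahrr, the AhR repressor and a known AhR target, lay at 7.2 and 7.8 in TCDD and at 5.5 and 5.2 in DMSO, a difference of 2.15 (SE 0.28, adjusted p = 0.349). Ahr lay at 8.6 and 7.7 in TCDD and at 8.8 and 9.7 in DMSO, a difference of -1.10. Arnt, the partner of AhR, held 5.1 and 5.0 in both groups on a dim probe set. Sim2, a neural bHLH-PAS gene, lay at 5.3 and 5.2 in TCDD and at 4.7 and 4.8 in DMSO, a difference of 0.50 on a dim probe set. The hypoxia factor genes Hif1a, Epas1 and Hif3a differed by -0.10, 0.15 and -0.30. Of the members with PAS domains (Bmal1, Clock, Npas2, Per1 and Per2), Per2 alone differed by at least 0.5 in size, on its probe set 1417603_at. The DMSO mean there, 5.5, lay below the dim threshold, and the other Per2 probe set, which was dim, differed by -0.20.

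**Figure D5:**
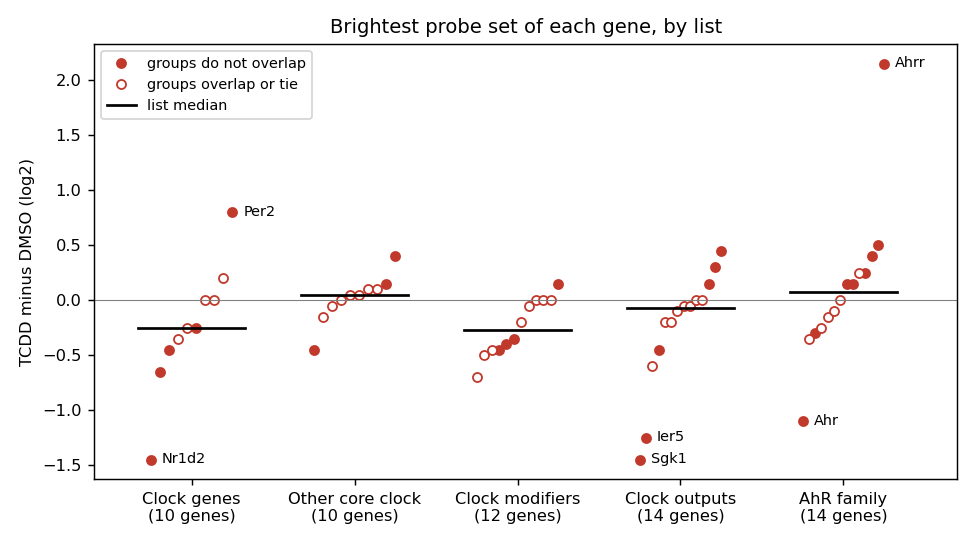
Difference between TCDD and DMSO (log2, vertical axis) of the brightest probe set of each measured gene, for the 10 clock genes and the 4 comparison lists. Filled points mark genes whose groups do not overlap, and black lines mark list medians, which run from -0.28 for clock modifiers to 0.08 for the AhR family.

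With 2 arrays against 2 the precision is low. In simulated data with the moderated spread of these arrays and rounded values, the same limma fit recovered 0% of 200 probe sets changed by 1 and by 2 on the log2 scale, and 49% of those changed by 3. The count of 0 therefore does not show that the clock genes did not change.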

How the data were processed

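Splenic dendritic cells were profiled on 4 Affymetrix mouse arrays, 2 per group. Per the submitters' processing notes the authors deposited RMA output, on the log2 scale by its range of 3.4 to 14.5. RMA corrects background, quantile-normalizes and summarizes probes. The deposited arrays still did not share the same distribution, since quantile normalization moved the Bhlhe40 difference from -0.45 to -0.09. No software version is given in the sources used, and the values lie on steps of 0.1. Of 22690 probe sets, the 64 controls were not tested. Probe sets were named by the platform annotation and updated through RefSeq gene identifiers.

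TCDD was compared with DMSO by limma 3.58.1 in R 4.3.3 (lmFit, eBayes, two-sided), with Benjamini-Hochberg adjustment over 22626 probe sets and n = 2 per group. Differences are TCDD minus DMSO. Intervals are moderated 95% intervals. An exact permutation test of 2 against 2 cannot go below p = 0.33, so none was run. Figures were drawn with matplotlib 3.10.9.

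The members and lists were chosen with earlier results of these data known. Named were every member probe set, all measured genes of the core clock list, the 4 largest differences in the modifier and output lists, genes of the AhR family, and the 5 genes most like the member with the largest difference; of the tied Nampt and Noct both were named. P-values reflect only the spread of these arrays. Simulated data served to test the fit. Alternatives were normalization, centring, a dim filter, a replicate block, the prior, 1 probe set per gene, the threshold, no moderation and leaving out each array.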

Additional observations from a re-analysis of the deposited data

How the results depend on the processing

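Limma called 0 clock probe sets and 0 of all probe sets under quantile normalization, cyclic loess, median centring, a dim filter, 1 probe set per gene, a prior that was trended and robust, a threshold of 0.10, no moderation (which leaves out the 741 probe sets without spread) and without each array in turn. The smallest adjusted p of a clock probe set was 0.114, and that of the Nr1d2 probe set 1416958_at ranged from 0.211 to 0.612. With the replicate number as a block limma called 0 of either. The numbers are not known to pair the arrays: replicate 1 minus 2 correlated at -0.189 between groups across probe sets. The crossed pairing, added after this value was seen, called 0 too.

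Clock probe sets higher in TCDD without overlap numbered 2, and 1 under median centring, 1 without dim probe sets and 1 with 1 probe set per gene. The last 2 alternatives leave fewer probe sets. Over the whole array 4306 of 22626 lay higher without overlap, and 2977 under median centring. Without dim probe sets 2164 of 13630 did, and with 1 probe set per gene 2480 of 12393. Without single arrays the count of higher clock probe sets ranged from 2 to 7, since a lone array meets no overlap more easily. It was 2 without TCDD replicate 1, where 25.8% of all probe sets lay higher, and 7 without TCDD replicate 2, where 40.8% did. It was 4 without DMSO replicate 1, where 30.1% did, and 3 without DMSO replicate 2, where 24.8% did. The count of lower ones ranged from 5 to 8. It was 8 without TCDD replicate 1, where 45.3% of all lay lower, and 5 without TCDD replicate 2, where 23.7% did. It was 7 without DMSO replicate 1, where 28.2% did, and 7 without DMSO replicate 2, where 28.4% did. The median difference of -0.05 became -0.25 without dim probe sets and -0.25 with 1 probe set per gene, and ranged from -0.15 to 0 without single arrays. The sign turned in 2 of 190 recomputed probe set differences: the Clock probe set 1418659_at ranged from -0.45 to 0.05 without single arrays, and the Tef probe set 1450184_s_at from -0.05 to 0.45. The Nr1d2 probe set ranged from -1.65 to -1.25. Unadjusted p under 0.05 was met by 2958 probe sets, by 1960 after cyclic loess, by 1275 without moderation, and by 1521 to 5733 without single arrays. The number of arrays limits the precision.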
